A study of Homo sapiens with 10 samples.

Results

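JUN-alone sites are the places in the genome of transformed breast epithelial cells where ChIP-seq listed a peak for JUN and no summit of FOS, JUNB, STAT3 or NFKB1 within 300 bp of the JUN summit. They were chosen by that distance from the peak lists of the transformed cells, and 20403 of the 127335 JUN peaks on chromosomes 1 to 22 and X met the rule (16.0%, Wilson 95% interval 15.8 to 16.2). Of the other JUN peaks, 17303 (13.6%) had a summit of 1 of the 4 other proteins within this distance, 28071 (22.05%) of 2 of them, 24907 (19.6%) of 3 and 36651 (28.8%) of all 4. These 106932 sites are called the shared JUN peaks below.

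The data are 10 ChIP-seq peak lists, 1 for each of 5 proteins in each of 2 states of the MCF10A-ER-Src line. MCF-10A is a non-tumorigenic human breast epithelial cell line, and in this derivative tamoxifen turns on v-Src, a viral tyrosine kinase, which the cells make as a hybrid with part of the estrogen receptor (ER). Cells described as transformed had received 1 µM 4-hydroxy-tamoxifen for 12 h, whereas non-transformed cells had received ethanol, the carrier. All cells of both groups carry the ER-Src fusion. In the library names that the lists carry, ethanol stands with 36 h and tamoxifen with 12 h, and whether these hours bear on the differences between the states was not tested. Each group is a single library, and differences between groups therefore have no replicate error. The intervals given here cover the sampling of sites and not the spread between cultures, and no difference was tested.

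JUN is a basic leucine zipper protein of the AP-1 family. It binds DNA as a dimer, most often with a FOS family protein at AP-1 elements, and it can also pair with other JUN proteins or with ATF family proteins. JUNB is a relative of JUN that competes for the same partners, STAT3 is the transcription factor that cytokine receptors and Src activate, and NFKB1 is the p105/p50 subunit of NF-κB. FOSL1, FOSL2, FOSB, JUND and the ATF proteins were not among the proteins assayed, so "alone" refers to the 4 other lists only.

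JUN-alone sites were weak JUN peaks. The pileup, which counts the extended reads that cover the summit, had a median of 9 in the JUN library of transformed cells (quartiles 7 and 11, range 5 to 112). The median was 10 at sites shared with 1 other protein, 12 with 2, 15 with 3 and 26 with all 4 (quartiles 17 and 37, maximum 139). Depth-scaled pileup, which is the pileup per 1000000 filtered reads of the library, had a median of 0.488 for JUN-alone sites, 0.813 for the shared JUN peaks and 1.41 for sites with all 4 proteins. Median fold enrichment over the local background was 4.94 at JUN-alone sites and 8.24 at shared JUN peaks. A pileup of 10 or less was found at 14975 JUN-alone sites (73.4%) and at 28.1% of shared JUN peaks. The peaks were also narrow, with a median length of 140 bp against 205 bp for shared JUN peaks. The list's minimum length of 120 bp was found at 5570 of them (27.3%), against 10.3% of all JUN peaks and 7.03% of shared JUN peaks. Because these values come from the list that defined the sites, they are a description.

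The share of JUN peaks that were alone fell along the whole range of pileup. At a pileup of 5 to 6 reads, 2025 of 3805 JUN peaks (53.2%) had no other protein within 300 bp. The share was 37.9% at 7 to 8 reads, 25.5% at 9 to 10, 14.6% at 11 to 14 and 5.87% at 15 to 19. It was 1.55% at 20 to 29 reads (296 of 19085), 0.358% at 30 to 49 (50 of 13983) and 0.152% at 50 or more (5 of 3291). A depth-scaled pileup of at least 2 was reached by 19 JUN-alone sites (0.0931%), against 8.05% of all JUN peaks and 25.1% of those with all 4 other proteins.

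**Figure D1:**
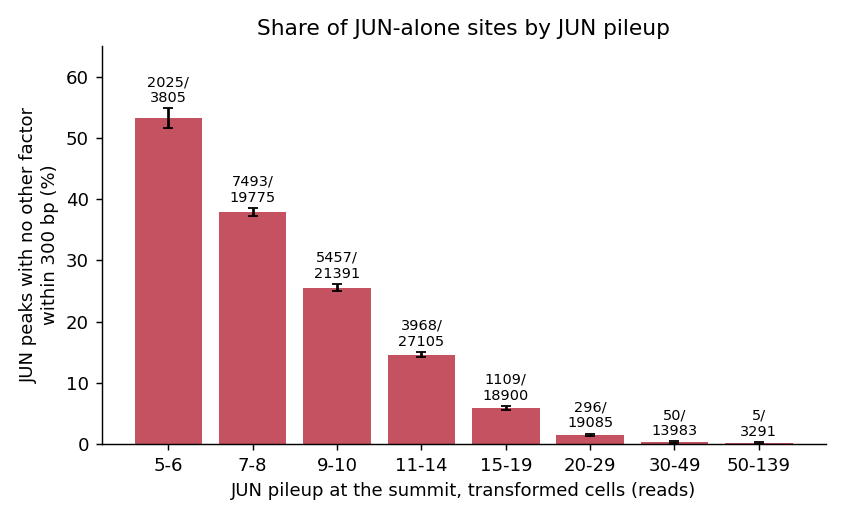
Share of JUN peaks of transformed cells with no other protein within 300 bp (%, bars from 0) in 8 classes of JUN pileup (reads), with Wilson 95% intervals as error bars and the counts of JUN-alone sites over all JUN peaks above each bar. The share goes from 53.2% at 5 to 6 reads to 0.152% at 50 to 139 reads.

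The lists of the other proteins have detection limits of their own. The lowest depth-scaled pileup that a list of transformed cells holds was 0.226 for FOS, 0.317 for JUNB, 0.413 for NFKB1 and 0.446 for STAT3. Depth-scaled JUN pileup was at or above every one of these levels at 10885 JUN-alone sites (53.4%). At the remaining sites the JUN signal itself was below the lowest entry of at least 1 of the other lists. Over all JUN peaks the lower quartile of depth-scaled JUN pileup was 0.488, above every one of these levels. The levels come from libraries of different proteins, and whether they can be compared with JUN pileup was not tested. The part that these limits play in the number of JUN-alone sites was not tested. Filtered depth was 18454386 reads for JUN in transformed cells, 15852999 in non-transformed cells and 4837474 to 22082403 over all 10 libraries.

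The non-transformed cells offer a readout that the rule did not use. A JUN summit was listed there within 300 bp of 5576 JUN-alone sites (27.3%, 26.7 to 27.9), against 50.7% of all JUN peaks of transformed cells. The share was 33.4% for sites with 1 other protein, 37.1% with 2, 53.5% with 3 and 80.6% with all 4. JUN-alone sites thus had the lowest share of the 5 classes, and the interval of the next class was 32.7 to 34.1. These intervals cover sites of 1 library. Within that next class the share was 28.7% (27.8 to 29.5) with FOS only and 28.6% (26.2 to 31.1) with JUNB only. It was 39.9% with STAT3 only and 52.4% with NFKB1 only.

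The share with JUN in non-transformed cells rose with JUN pileup in transformed cells, both for JUN-alone sites and for shared JUN peaks. At a pileup of 5 to 6 reads, 9.19% of JUN-alone sites and 22.1% of shared JUN peaks had JUN in non-transformed cells, and at 7 to 8 reads 16.0% and 23.4% did. At 9 to 10 reads the shares were 26.8% and 28.2%. Above that the order turned, with 43.9% against 41.3% at 11 to 14 reads and 65.3% against 59.4% at 15 to 19 reads. At 20 to 29 reads they were 74.0% and 78.2%. At 30 to 49 reads JUN-alone sites were again lower, at 84.0% of 50 sites (71.5 to 91.7) against 94.7%, and at 50 or more all 5 of them and 99.6% of shared JUN peaks had JUN. From 9 reads up to 29 both sets therefore lay within 6 percentage points of each other, with wider gaps at lower pileup and at 30 to 49 reads, whereas the pooled shares were 27.3% and 55.2%.

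For the other proteins the rule itself bears on the readout, since JUN-alone sites were chosen for lacking them in transformed cells. A summit of FOS, JUNB, STAT3 or NFKB1 was listed in non-transformed cells within 300 bp of 4047 JUN-alone sites (19.8%, 19.3 to 20.4), against 73.4% of all JUN peaks. The gap to the shared JUN peaks was present in each class of pileup, at 12.7% against 56.1% for 5 to 6 reads, 20.5% against 69.4% for 9 to 10, 31.4% against 89.9% for 15 to 19 and 37.8% against 96.9% for 20 to 29. The 4 proteins were thus also listed at a lower share of JUN-alone sites in the libraries of non-transformed cells, in each class of JUN pileup examined. Because the rule excluded these proteins in transformed cells, this lower share is no independent result. How much of it selection accounts for was not tested.

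**Figure D2:**
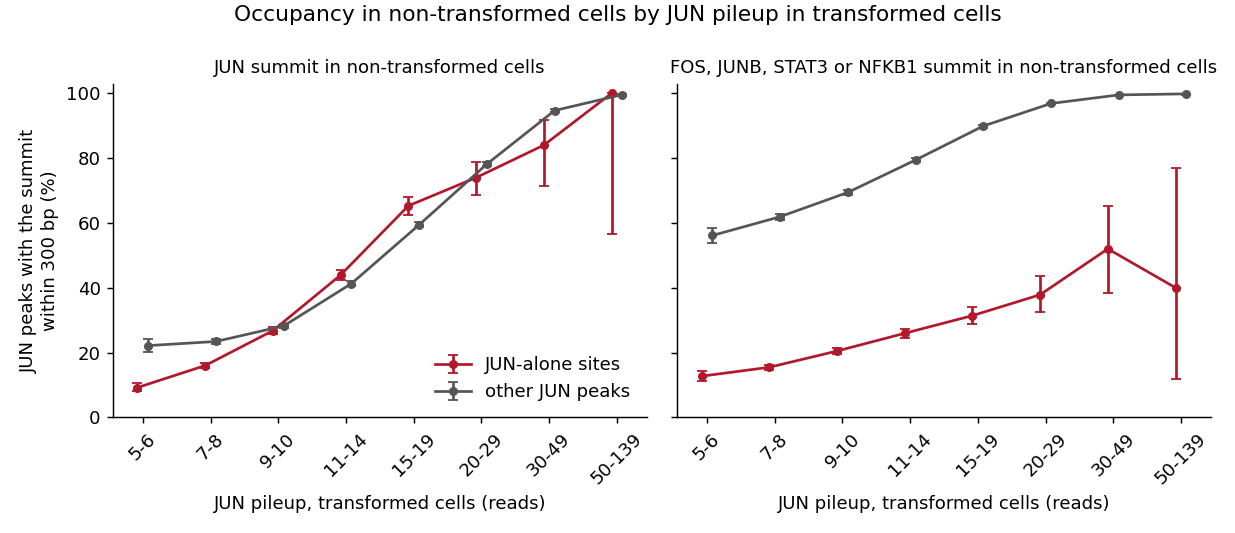
Share of JUN peaks of transformed cells (%) with a JUN summit (left) or a summit of FOS, JUNB, STAT3 or NFKB1 (right) within 300 bp in non-transformed cells, by JUN pileup in transformed cells (reads), for JUN-alone sites (red) and shared JUN peaks (grey). Bars are Wilson 95% intervals. The curves for JUN lie close together from 9 to 29 reads, whereas those for the other proteins are apart throughout, 20.5% against 69.4% at 9 to 10 reads.

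Among the 4 proteins, FOS was the one most often listed at JUN-alone sites in non-transformed cells. It was found at 2771 of them (13.6%), against 67.7% of all JUN peaks. JUNB was found at 910 (4.46%), against 44.7% of all JUN peaks, and STAT3 at 1117 (5.47%), against 26.4%. NFKB1, whose list in non-transformed cells is the shortest and comes from the shallowest library, was found at 144 (0.706%), against 8.97% of all JUN peaks. STAT3 was listed more often than JUNB at JUN-alone sites, whereas JUNB was listed more often than STAT3 at shared JUN peaks (52.3% and 30.4%). The rule excluded both in transformed cells, with 101014 JUNB peaks from 15750765 filtered reads and 80265 STAT3 peaks from 8967267. Whether this bears on the order was not tested.

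Of the 4047 sites with another protein in non-transformed cells, most had a single one. FOS was the only other protein at 2005 sites, STAT3 at 645, JUNB at 528 and NFKB1 at 55, while 739 sites had 2 proteins, 69 had 3 and 6 had all 4. The peaks of these proteins were low, with a median FOS pileup of 9 reads in the non-transformed library against 23 at shared JUN peaks, and medians of 7 against 12 for JUNB and 8 against 12 for STAT3. Their summits also lay farther from the JUN summit, with medians of 34 bp for FOS, 42 bp for JUNB, 54 bp for STAT3 and 45 bp for NFKB1, against 19, 20, 36 and 33 bp at shared JUN peaks.

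**Figure D3:**
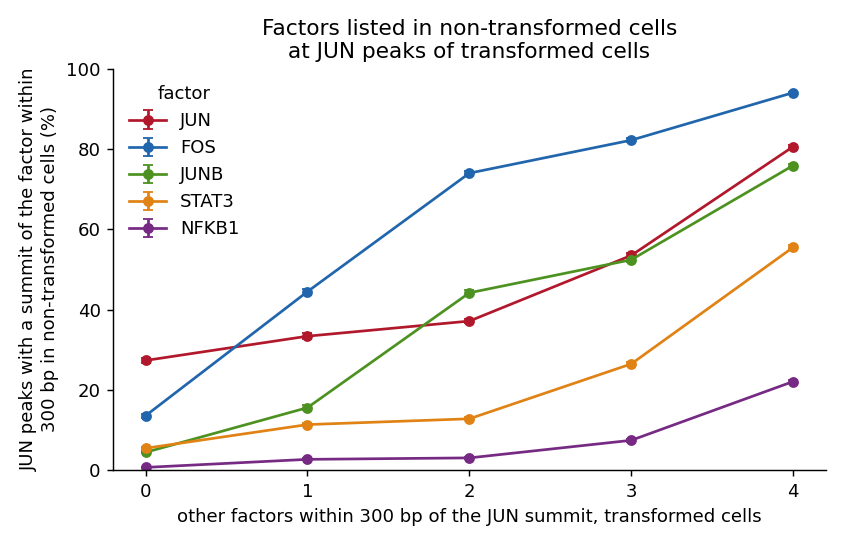
Share of JUN peaks of transformed cells (%) that had a summit of each of the 5 proteins within 300 bp in non-transformed cells, by the number of other proteins (0 to 4) near the JUN summit in transformed cells. JUN-alone sites are at 0, bars are Wilson 95% intervals, and at 0 the order is JUN (27.3%), FOS (13.6%), STAT3 (5.47%), JUNB (4.46%) and NFKB1 (0.706%).

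Crossing these readouts divides the JUN-alone sites into 4 groups. No summit of any of the 5 proteins was listed in non-transformed cells within 300 bp of 12226 sites (59.9%, 59.2 to 60.6), against 19.9% of all JUN peaks. These sites had a median JUN pileup of 8 reads in transformed cells and at most 30. At 4130 sites (20.2%, 19.7 to 20.8) JUN was listed in both states and none of the other proteins in either, with a median pileup of 10 and a maximum of 112. Another protein without JUN was listed in non-transformed cells at 2601 sites (12.7%), and both JUN and another protein at 1446 (7.09%), where the median pileup was 11. Of all JUN peaks, 50.7% had JUN in non-transformed cells and 73.4% another protein, each counted with or without the other. All JUN peaks were not divided into JUN only, another protein only and both. The shares of 20.2%, 12.7% and 7.09% therefore have no direct counterpart here.

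The 4130 sites with JUN by itself in both states are 3.24% of the JUN peaks of transformed cells. Their median pileup was 10 reads in transformed cells (quartiles 8 and 13) and 9 reads in non-transformed cells (quartiles 8 and 11). At 657 of the 4130 sites the pileup in transformed cells was 15 or more. Median and upper quartile of this pileup were 9 and 11 reads over all JUN-alone sites and 13 and 21 reads over all JUN peaks. The JUN summits of the 2 states lay a median of 32 bp apart (31 to 33). In transformed cells 1041 of the 4130 sites were more than 10000 bp from the nearest summit of another protein. This share was close to the 24.7% of all JUN-alone sites at such a distance.

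Median JUN pileup was similar in both states at JUN-alone sites found in both JUN lists. Most JUN-alone sites had no JUN peak in non-transformed cells and are left out here. The lowest entry of both lists is 5 reads, a depth-scaled pileup of 0.271 in transformed and 0.315 in non-transformed cells. Sites at the lowest pileup in transformed cells can thus only have a ratio below 1. How far these limits shape the ratios was not tested. At these 5576 sites the median depth-scaled JUN pileup was 0.542 in transformed and 0.568 in non-transformed cells, and the median ratio of transformed to non-transformed was 0.954 (0.945 to 0.960, quartiles 0.764 and 1.18). JUN was higher in transformed cells at 2402 of them (43.1%). The fragment length was 120 bp for the JUN library of transformed cells and 129 bp for that of non-transformed cells. Pileup counts extended reads, and scaling by depth leaves this difference in. On the scale of fold enrichment, which divides by each library's background, the median ratio was 1.053, so the direction depends on the scale. The median ratio of depth-scaled pileup was 0.991 at sites with 1 other protein, 1.15 with 2, 1.29 with 3 and 1.48 with all 4, where JUN was higher in transformed cells at 86.3% of 29528 sites.

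The median ratio also rose with JUN pileup in transformed cells, up to 49 reads in both sets, and this pileup enters the ratio itself. The limits of both lists apply to these ratios too. At 5 to 6 reads in transformed cells the median ratio was 0.644 for JUN-alone sites and 0.573 for shared JUN peaks, and for both sets it was 0.752 at 7 to 8 reads and 0.859 at 9 to 10 reads. It was 1.05 and 1.09 at 11 to 14 reads, 1.26 and 1.33 at 15 to 19 reads, and 1.45 and 1.57 at 20 to 29 reads, where 219 JUN-alone sites remained. At 30 to 49 reads it was 1.47 and 1.64, and at 50 or more 1.33, over 5 JUN-alone sites, and 1.54. From 11 reads upward JUN-alone sites had the lower median ratio in each class, but the intervals of both sets overlapped or met. Both were 1.05 to 1.09 at 11 to 14 reads. At 15 to 19 reads they were 1.25 to 1.29 for JUN-alone sites and 1.29 to 1.33 for shared JUN peaks. At 20 to 29 reads they were 1.37 to 1.64 and 1.56 to 1.59. Pooled over pileup, the median ratios were 0.954 for JUN-alone sites and 1.33 for all shared JUN peaks. The JUN summits of both states were a median of 32 bp apart at JUN-alone sites and 23 bp at shared JUN peaks when pooled. Within classes of pileup the order was not the same. At JUN-alone sites the summits lay closer together at 5 to 6 reads (67.5 against 98 bp), 7 to 8 (46 against 51 bp), 9 to 10 (33 against 37 bp), 15 to 19 (22 against 26 bp) and 30 to 49 reads (14 against 17 bp). The medians were equal at 11 to 14 reads (29 bp) and 20 to 29 reads (21 bp), and at 50 or more reads they were 16 bp over 5 JUN-alone sites and 13 bp.

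**Figure D4:**
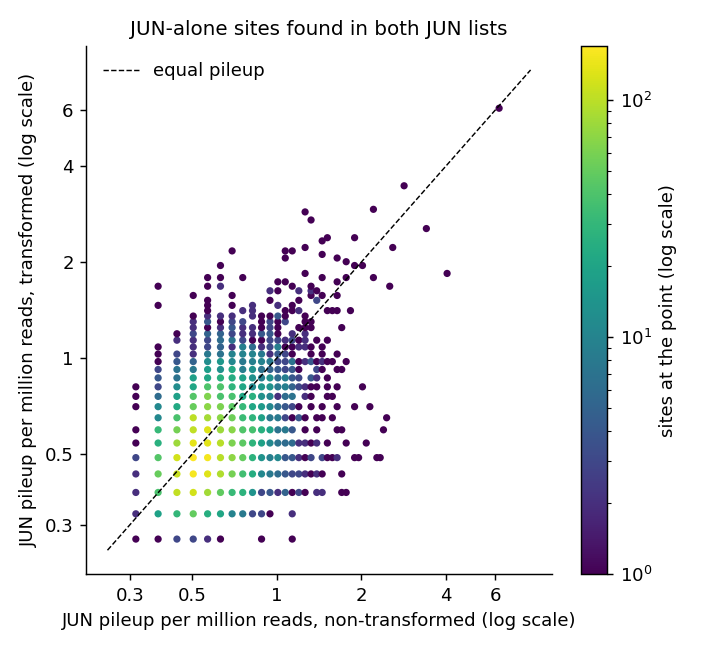
Depth-scaled JUN pileup, per 1000000 filtered reads, in non-transformed (x axis, log scale) and transformed cells (y axis, log scale) at the 5576 JUN-alone sites found in both JUN lists. Color gives the number of sites at each point, since pileups are whole reads, and the dashed line marks equal pileup. Most sites lie below 1 in both states, and the site at the upper right, at 6.07 in transformed and 6.18 in non-transformed cells, lies close to the line.

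Most of the strongest JUN-alone sites were listed for JUN in both states. Ranked by the q-value of JUN in transformed cells, 707 of the top 1000 sites (70.7%), 84 of the top 100 and 9 of the top 10 had JUN in non-transformed cells, with summits a median of 21, 17 and 16 bp apart. Of the top 100, 44 had JUN by itself in both states, 52 had another protein in non-transformed cells and 4 had no summit of any protein there. Among the 19 sites of a depth-scaled pileup of at least 2, 18 had JUN in non-transformed cells (94.7%), as did 97.9% of the 10226 shared JUN peaks that reached this level. Recurrence of JUN was thus high at strong JUN peaks of either kind.

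The first of them stood well above the rest. It spans chr10:80679709-80680163 (hg19, the build named in the submitters' processing notes), with its summit at 80679966. JUN pileup there was 112 reads in transformed cells (depth-scaled 6.07, fold enrichment 62.1) and 98 reads in non-transformed cells (depth-scaled 6.18, fold enrichment 56.3), with the summits 16 bp apart. The nearest summit of another protein was 5750 bp away in transformed cells (NFKB1), and in non-transformed cells the nearest FOS, JUNB and STAT3 summits were 5830, 5848 and 5804 bp away. JUN was thus about equally high in both states at a site where none of the other proteins was listed nearby.

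A strong JUN peak without the others in either state was also found at 4 further sites of the top 10. On chromosome 1, with its summit at 225662840, pileup was 64 reads in transformed and 45 in non-transformed cells, on a local background 2.03 times the genome-wide level. On chromosome 3, summit 49841383, it was 50 and 21 reads. At the site with its summit at 1108867 on chromosome 11, which was 23268 bp from the nearest other protein, it was 47 and 54 reads, or 2.55 and 3.41 after scaling by depth, so that JUN was higher in the non-transformed cells. The site on chromosome 1 with its summit at 86965879 had 44 and 30 reads. After scaling by depth, JUN was higher in transformed cells at 3 of these 4 sites.

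Another protein was listed in non-transformed cells at the remaining 5 of the top 10, and these fall into different kinds. At the summits 91405036 on chromosome 10 and 20001772 on chromosome 6, FOS had a low peak of 9 reads in non-transformed cells beside JUN peaks of 20 and 23 reads, and none of the 4 was near in transformed cells, the nearest summits lying 1315 and 1791 bp away. The other 3 sites were wide JUN peaks, 660 to 992 bp long, with a STAT3 summit just past the limit in transformed cells, at 308, 349 and 356 bp. Of these, the site at 132828779 on chromosome 8 had 97 FOS reads, 42 JUNB reads and 14 STAT3 reads within 21 bp of its summit in non-transformed cells, where the nearest JUN summit was 388 bp away, and the site at 6467745 on chromosome 6 had 84 FOS reads and 31 JUNB reads. At the summit 130873268 on chromosome 7, STAT3 had 16 reads and JUNB 5 in non-transformed cells. In transformed cells these 3 sites count as JUN-alone by the position of the summit, although another protein was close by.

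Few JUN-alone peaks overlapped a peak of another protein, which the rule itself limits since no other summit lies within 300 bp. This was the case for 315 JUN-alone sites (1.54%) in transformed cells, and 49.5% of these had another protein in non-transformed cells. Without them, 19.4% of the remaining 20088 sites had another protein in non-transformed cells and 27.4% had JUN. At the limit itself, 545 sites whose nearest other summit was more than 300 and up to 350 bp away, just inside the rule, had a median JUN pileup of 8 reads (quartiles 7 and 10). The 674 JUN peaks in the last 50 bp before the limit, just outside the rule, had the same median and quartiles. In non-transformed cells, JUN was listed at 24.8% and 41.5% of them and another protein at 37.1% and 62.3%.

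Sites found in no list of non-transformed cells were weaker even at the top. The highest 5 ranked 51, 52, 69, 72 and 105 among all JUN-alone sites. Their summits are at 90925121 on chromosome 14 and 33743815 on chromosome 15, both with 28 reads and a fold enrichment of 15.9, at 202909887 on chromosome 1 (30 reads, 13.7), at 74088101 on chromosome 13 (29 reads, 13.9) and at 69857598 on chromosome 15 (24 reads, 13.7). JUN was thus seen at a moderate level in transformed cells and was not in the JUN list of non-transformed cells, whose lowest entry is 5 reads (depth-scaled 0.315).

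Most JUN-alone sites were well separated from the other proteins. The nearest summit of FOS, JUNB, STAT3 or NFKB1 in transformed cells lay a median of 3986 bp away (3897 to 4085, quartiles 1342 and 9878). It was up to 1000 bp away at 3973 sites (19.5%), more than 1000 and up to 10000 bp at 11400 (55.9%) and more than 10000 bp at 5030 (24.7%). JUN was listed in non-transformed cells at 25.4%, 28.0% and 27.3% of these 3 classes, and another protein at 24.3%, 19.2% and 17.8%. The recurrence of JUN thus varied by less than 3 percentage points with distance. The nearest protein was FOS, which has the longest list, at 9545 sites (46.8%), JUNB at 3998, STAT3 at 3447 and NFKB1 at 3413. The nearest other JUN summit was a median of 4923 bp away, against 3493 bp for shared JUN peaks, and 5205 JUN-alone sites (25.5%) had another JUN-alone site as their nearest JUN neighbour. JUN-alone sites were 16.0% of all JUN peaks, and the neighbours of shared JUN peaks were not counted in this way.

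JUN-alone sites occurred on every chromosome examined, and most chromosomes held a similar share. It was lowest on chromosomes 21 (13.4%) and 18 (13.9%) and highest on chromosome 19, where 588 of 2556 JUN peaks were alone (23.0%, 21.4 to 24.7), followed by chromosomes 22 (19.0%) and 17 (18.9%). Among JUN peaks of at most 10 reads the share on chromosome 19 was 39.4%, against 29.0% to 35.9% on the other chromosomes. JUN was listed in non-transformed cells at 40.3% of the JUN-alone sites of chromosome 19, and 197 of its JUN peaks (7.71%) had JUN by itself in both states, against 3.24% in the whole list. The excess on chromosome 19 was not shared by the other AP-1 lists, since sites with FOS alone made up 20.5% of FOS peaks there, against 24.98% over all chromosomes, and sites with JUNB alone 3.43%, against 7.68%.

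**Figure D5:**
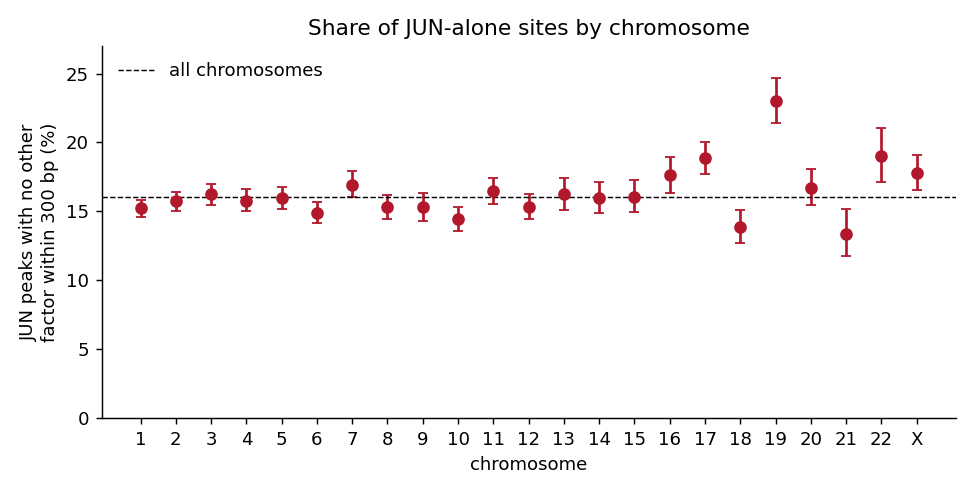
Share of JUN peaks of transformed cells with no other protein within 300 bp (%) on each chromosome, with Wilson 95% intervals. The dashed line is the share over all chromosomes (16.0%), and chromosome 19 lies highest at 23.0%.

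Of the windows of 100000 bp with any JUN-alone site, 7966 held 1 and 4703 held more. The latter contained 12437 of the sites (61.0%), and 305 windows held 5 or more. The same counts were not made for all JUN peaks, so they do not show whether JUN-alone sites cluster more than other JUN peaks. The densest window was chr1:205600001-205700000 with 18 JUN-alone sites among 27 JUN peaks, at a median local background of 1.57 times the genome-wide level. It was followed by chr7:26200001-26300000 with 17 and chr11:65200001-65300000 with 16. JUN was listed in non-transformed cells at 4 of the 18, 12 of the 17 and 8 of the 16 sites, against 27.3% of all JUN-alone sites. In another dense window, chr1:230400001-230500000, it was listed at 0 of 11 sites. These windows were picked for their counts. A local background more than 1.1 times the genome-wide level was found at 5782 JUN-alone sites (28.3%), against 32.1% of all JUN peaks.

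Sites with a single protein were counted in the same way for the other lists of transformed cells. FOS was alone at 41116 of its 164605 peaks (24.98%), JUNB at 7757 of 101014 (7.68%), STAT3 at 10.8% and NFKB1 at 12.5%. The protein itself was listed in non-transformed cells at 27.3% of JUN-alone sites, 24.0% of FOS-alone sites and 6.74% of JUNB-alone sites, against 55.2%, 73.0% and 59.2% of the other peaks of these lists. JUN-alone and FOS-alone sites were thus listed again more often than JUNB-alone sites, with libraries of different depth behind each value.

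When JUN was accompanied by 1 other protein, the share of sites with JUN in non-transformed cells differed between the proteins. JUN was listed in non-transformed cells at 28.7% of the 11546 sites with FOS only and 28.6% of the 1309 with JUNB only, close to the 27.3% of JUN-alone sites. It was listed at 39.9% of the 1899 sites with STAT3 only and at 52.4% of the 2549 sites with NFKB1 only. These shares were not adjusted for JUN pileup or for the depth of the other libraries, and their differences were not tested.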

How the data were processed

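JUN, FOS, JUNB, STAT3 and NFKB1 were each assayed by ChIP-seq in non-transformed and transformed MCF10A-ER-Src cells, with 1 library per protein and state, and samples were grouped by the labels. The submitters' processing notes name Bowtie, MACS2 and hg19. Per the file headers, the authors called peaks per library with MACS 2.0.10.20131216 from 36 bp tags without a control library, keeping 1 read per position, setting the genome size to 2700000000 bp, the local background window to 1000000 bp and the q-value cutoff to 0.05. The deposited pileup is a signal (coverage by extended reads at the summit, not scaled by depth). The deposited p-value and q-value are −log10 values, and the deposited fold enrichment is the ratio of pileup to local background. Peak calling without a control leaves regions of high background in the lists.

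Peaks on chromosomes 1 to 22 and X were used. Summits within 300 bp were taken as shared, each list entire. Pileup was divided by the filtered reads of its library and multiplied by 1000000. Local background was recovered from pileup and fold enrichment with 1 read added to each, as MACS does. Shares have Wilson 95% intervals and medians have order-statistic 95% intervals, both over sites, which are not replicates, so no p-values are given. The JUN-alone sites, lists and comparisons were chosen with earlier results of these data known. Sites are named by a rule: the 10 JUN-alone sites of highest JUN −log10 q-value, and the 5 highest of those with JUN, and of those with no protein, in non-transformed cells. Dense windows and chromosomes were singled out after their values were seen. Motifs, genes and sequences are not given, since the coordinates are hg19 and no genome or annotation of that build was used here. Distance code was tested on simulated data, where all planted sites among 127335 were recovered. Python 3.11.15, numpy 2.4.6, pandas 2.3.3, scipy 1.17.1 and matplotlib 3.10.9 were used. Alternatives were other distances, whole peaks, stricter thresholds, merged summits and parts of the JUN list split by pileup.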

Additional observations from a re-analysis of the deposited data

How the results depend on the processing

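The share of JUN peaks with no other protein (16.0%) was 17.9% with a summit distance of 150 bp, 14.7% with 500 bp and 16.7% when overlap of whole peaks by 1 bp replaced summit distance. It was 3.66% among JUN peaks at or above the median −log10 q-value of 9.36 and 0.185% among those with a pileup of at least 2 per 1000000 filtered reads. The share of JUN-alone sites with JUN in non-transformed cells (27.3%) was 25.1% and 29.0% with 150 and 500 bp, 61.5% above the median −log10 q-value, 94.7% at this depth-scaled pileup of 2, and 17.0%, 37.4%, 62.8% and 78.8% in successive 25% parts of the JUN list by pileup. The share with another protein in non-transformed cells (19.8%) was 21.2% with whole peaks, 32.0% and 47.4% under the stricter thresholds, and 16.1%, 23.8%, 31.1% and 44.6% in the same parts. The median depth-scaled JUN pileup (0.488) was 0.813 and 2.33 under the stricter thresholds, which select on pileup. Requiring more than 1000 bp to another protein, an alternative chosen after seeing the data, gave 12.9% for the share of JUN peaks and 18.8% for the share with another protein. Merging JUN summits within 300 bp left all 4 values within their intervals. Motif and transcription start site shares and their alternatives were not run, because a genome and annotation of hg19 were not used here. No paired analysis was possible because each group has 1 library, and for the same reason no replicate could be left out. Depth limits the weakest sites, since 1 read is a depth-scaled pileup of 0.0542 in the JUN library of transformed cells.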

Other observations

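JUN was also found by itself in the non-transformed cells. Of the 81444 JUN peaks there, 21186 (26.0%, Wilson 95% interval 25.7 to 26.3) had no FOS, JUNB, STAT3 or NFKB1 summit of the same state within 300 bp, a larger share than the 16.0% in transformed cells, with a JUN list that was shorter and with shorter lists of the other proteins. In transformed cells JUN was listed within 300 bp of 8525 of these sites (40.2%), against 79.0% of all JUN peaks of non-transformed cells and 92.6% of those with another protein. JUN was still by itself at 4089 (19.3%) and was joined by another protein at 4436 (20.9%), against 6.78% and 72.2% of all JUN peaks. At 2063 (9.74%) another protein was listed and JUN was not, and at 10598 (50.02%) no summit of any of the 5 proteins was listed, against 6.70% and 14.3% of all JUN peaks.

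The protein listed most often in transformed cells at these sites was FOS, at 4338 (20.5%, against 72.5% of all JUN peaks of non-transformed cells), followed by NFKB1 at 2794 (13.2%, against 53.2%), STAT3 at 1986 (9.37%, against 52.0%) and JUNB at 1296 (6.12%, against 60.01%). FOS and JUNB are AP-1 proteins that can bind the elements JUN binds, whereas NFKB1 and STAT3 recognize other elements. Each of the 4 proteins was thus listed at a smaller share of these sites than of all JUN peaks, and JUNB, which was ahead of NFKB1 over all JUN peaks, was behind it here. These sites were chosen for lacking the 4 proteins in non-transformed cells, so the smaller shares are no independent result. These values were not tested, since each state is 1 library.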
